A study of Mus musculus with 6 samples.

Results

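The genes described here are 9 genes of retinoid handling, followed across the cell types sorted as the Cdh5-CreERT2 marked lineage of mouse back skin. They are *Rbp4*, *Lrat*, *Dhrs3*, *Aldh1a1*, *Aldh1a2*, *Aldh1a3*, *Crabp1*, *Crabp2* and *Cyp26b1*, taken by symbol alone, and make up 9 of the 32285 genes in the count tables. Their levels played no part in the choice of cells or cell types, because the cells were grouped without them and without 56 other genes of the same pathway. In the mouse genome (build GRCm38.p6) *Lrat* lies at chr3:82892582-82903974 and *Crabp2* at chr3:87948693-87953372. *Dhrs3* lies at chr4:144892534-144928209, *Cyp26b1* at chr6:84571414-84593908 and *Aldh1a3* at chr7:66390892-66427477. *Crabp1* and *Aldh1a2* share a chromosome, at chr9:54764748-54773110 and chr9:71215789-71296243, as do *Aldh1a1* and *Rbp4*, at chr19:20492583-20643463 and chr19:38116620-38125321. Counts were taken per gene, mostly from the 3′ end of its transcripts.

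Retinoids are vitamin A and its derivatives. Retinol travels in blood bound to RBP4, is stored in cells as retinyl esters made by LRAT, and is oxidised first to retinal and then, by the ALDH1A enzymes, to retinoic acid. DHRS3 turns retinal back into retinol, CRABP1 and CRABP2 bind retinoic acid inside cells, and CYP26B1 breaks it down, so that the level of retinoic acid, a ligand of nuclear receptors, is set cell by cell. In skin, retinoic acid is known to act on the hair follicle and the dermis, and retinoid signals also take part in the development of nerves and vessels.

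Gene expression was measured by droplet single-cell RNA-seq in tdTomato+ cells sorted from back skin, with 1 library from each of 6 mice. The groups were 2 wild type (WT) mice at telogen, the resting stage of the hair cycle (postnatal day (PD) 20), 2 WT mice at anagen, its growth stage (PD32), and 2 Alk1 KO mice at telogen (PD25). All 6 mice carried the tdTomato reporter and Cdh5-CreERT2, a tamoxifen-activated Cre driven by the gene of VE-cadherin, and received 200 µg/g tamoxifen at PD17. The WT mice also carried Krt14-H2BGFP on a C57BL/6;CD1 background, whereas the KO mice were Alk1 flox/flox on C57BL/6 without that allele, so that the Alk1 genotype, the age, the strain and the allele cannot be told apart in the KO comparison. The authors describe the KO data as a previous dataset of theirs, so the experiment cannot be told apart from these either. A label of the KO samples gives their genotype as wild type, against their titles, which were followed here.

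The cells with 200 to 5000 genes and under 10% mitochondrial UMIs numbered 1713 to 5106 per library and 20941 in all, from libraries of 10615358 to 43317677 UMIs, with a median of 4371 to 6935 UMIs per cell. Any 2 libraries shared between 1 and 8 cell barcodes. *Xist*, the RNA of the inactive X chromosome, was at 938 CPM (UMIs of a gene per 1000000 UMIs of the cells summed) in telogen S1 and at 865 and 856 CPM in KO S1 and KO S2, and at no more than 0.0959 CPM in the other libraries, so the sexes were not balanced over the groups. *Acvrl1*, the gene of Alk1, was at 155 and 130 CPM in telogen ECs, 136 and 156 CPM in anagen ECs, and 119 and 96.7 CPM in KO ECs. Which exons were deleted is not given in the sources used here, and counts from the 3′ end need not show the loss of an exon.

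Endothelial cells (ECs) made up 12881 of the cells, and were parted into Artery (2520), capillaries led by Kdr (Cap-Kdr, 2360) or Rgcc (Cap-Rgcc, 1881), capillaries led by neither (Cap-other, 293), Vein (1570), lymphatic collecting (Lymph-Col, 2309) and capillary (Lymph-Cap, 1700) vessels, and proliferating cells (Proli, 248). Perineurial-like cells, which ensheath nerve bundles and were called from *Krt19*, *Slc2a1*, *Itgb4*, *Sfrp5* and other markers, numbered 2646. In every library at least 11 of their 12 markers were detected, with a summed level of 7483 to 8991 CPM in WT and 6972 and 6471 CPM in KO cells. There were 541 fibroblast-like, 522 pericyte-like and 125 Schwann-like cells, 1192 macrophage-like and 1663 other immune-like cells, 353 T and NK-like and 278 mast-like cells, and 740 cells left unnamed. The Schwann-like cells of telogen and anagen S1 also held perineurial markers at 1772 to 1916 CPM. Pericyte-like cells held endothelial markers (8 genes) at 1368 to 3121 CPM in WT and at 624 and 1791 CPM in KO. The part of these endothelial markers in the results on pericyte-like cells was not tested.

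The 9 genes differed in where their UMIs lay. Of the 4079 *Crabp2* UMIs, 86.7% came from perineurial-like cells, and of the 1929 *Lrat* UMIs, 92.0% came from blood ECs. *Dhrs3*, with 7106 UMIs the most counted of the genes, was spread over ECs (60.4%) and immune-like cells (28.3%). Fibroblast-like cells gave 65.3% of the 525 *Aldh1a1* UMIs and 58.9% of the 1445 *Cyp26b1* UMIs. Other immune-like cells gave 69.6% of the 1617 *Rbp4* UMIs and 77.9% of the 253 *Aldh1a2* UMIs. The 378 *Aldh1a3* UMIs were led by lymphatic ECs (37.6%), and the 402 *Crabp1* UMIs by unnamed cells (64.2%). These shares follow the numbers of cells sorted as well as the level per cell, so levels are given below as CPM within a population of a library. In such sums, fewer expressing cells and less RNA per cell cannot be told apart.

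**Figure D1:**
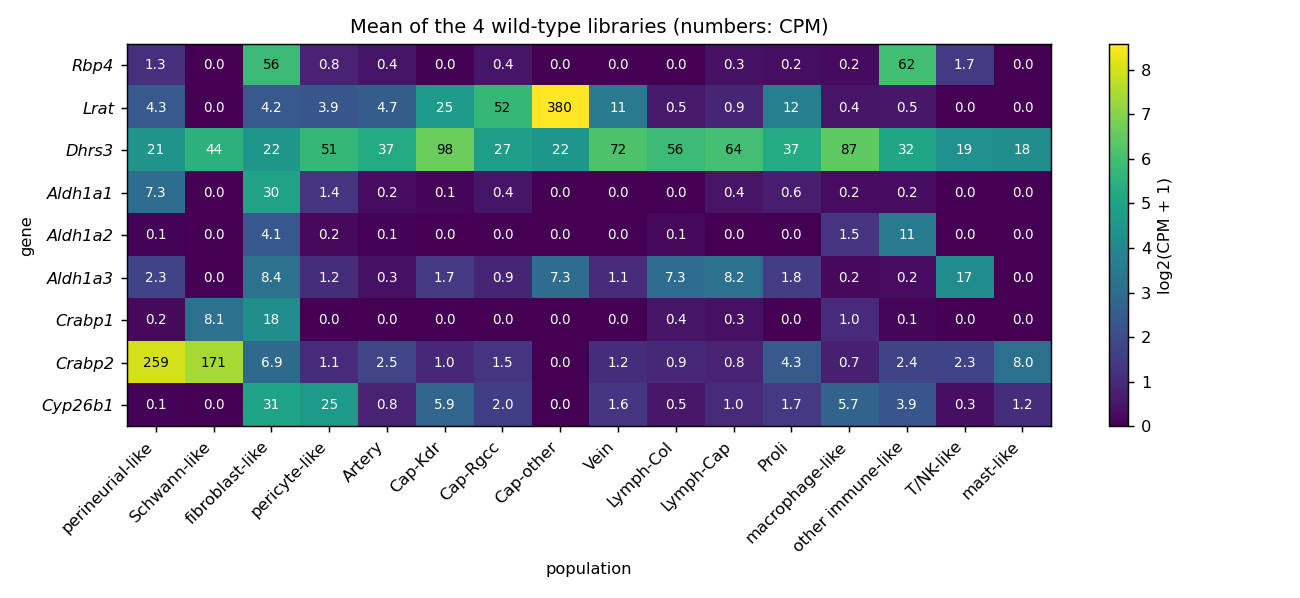
Levels of the 9 genes (y axis) in 16 populations (x axis), as the mean CPM of the 4 WT libraries, printed in each field and coloured by log2(CPM + 1). *Crabp2* stood at 259 CPM in perineurial-like and 171 CPM in Schwann-like cells, *Lrat* at 380 CPM in Cap-other, and *Dhrs3* at 17.95 CPM or more in every population. The Schwann-like cells of telogen and of anagen S1 also held perineurial markers.

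The start of transcription was looked at where RefSeq gave the 250 bases before it (build GRCm38.p6), which was the case for 11 promoter entries of 7 of the genes. The motif AGGTCA, which receptors of retinoic acid are known to bind, was found on either strand in 0 of the 11 entries and in 14.0% of all 32851 promoters. The TATA motif TATAAA was found in 2 of the 11 and in 12.4% of all. They are shown for *Cyp26b1* and *Rbp4*, both expressed in fibroblast-like cells, with the motif in capitals and both genes read from the minus strand:
Cyp26b1 (chr6:84593932-84593961): caggtttcaggcTATAAAgggctcttggct
Rbp4 (chr19:38124822-38124851): tccccccggagcTATAAAggaccgacggcc

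A match in these windows is a description of the letters, and says nothing of a factor bound there.

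*Rbp4*, the carrier of retinol in blood, was at 61.0 and 32.8 CPM in telogen, 58.8 and 73.1 CPM in anagen and 14.4 and 131 CPM in KO fibroblast-like cells. The stages overlapped, and KO S1 and KO S2 lay on either side of all WT libraries. The adipocyte markers (5 genes) summed to 1209 CPM in the fibroblast-like cells of KO S2 and to between 1.01 and 37.4 CPM in the other libraries, and their part in the *Rbp4* level of KO S2 was not tested. In other immune-like cells *Rbp4* was at 49.4 and 47.4 CPM in telogen, 52.2 and 97.5 CPM in anagen, and 4.47 and 7.60 CPM in KO. Both KO libraries lay below all WT libraries there, from 1 and 6 UMIs. Within these cells *Rbp4* lay in 1 cluster, led by *Adam23*, *Cd209e*, *Dnase1l3* and *Ccr7*, at 145 and 150 CPM in telogen, 284 and 240 CPM in anagen and 29.2 CPM in the 11 such cells of KO S2. The share of cells with an *Rbp4* UMI, after each cell was thinned to 1500 UMIs, was 4.86% (95% exact interval 3.85 to 6.05%) of WT other immune-like cells (median depth 13606 UMIs) and 5.08% (3.25 to 7.52%) of fibroblast-like cells (median 15847), against 0.0108% of ECs (median 5374). Without thinning the shares were 11.0%, 18.1% and 0.0606%. These intervals, and all others on shares of cells, cover counting alone. Perineurial-like cells held *Rbp4* at 1.25 ± 0.610 CPM (SD, n = 4 WT libraries), 5.74 ± 0.22 (SE) log2 units below fibroblast-like cells (edgeR quasi-likelihood test, Benjamini-Hochberg adjusted p = 1.86e-09).

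*Lrat*, which makes retinyl esters, marked part of the blood capillaries. In Cap-other it stood at 683 and 262 CPM in telogen, 287 and 289 CPM in anagen, and 159 and 138 CPM in KO. Every WT library was above both KO libraries, and telogen S1, with 14 cells, was far above the rest. In Cap-Rgcc it was at 38.5 and 34.9 CPM in telogen, 61.1 and 73.5 CPM in anagen, and 81.0 and 90.7 CPM in KO, with no overlap between the 3 groups. In Cap-Kdr it was at 21.0 and 10.0, 18.6 and 52.1, and 36.4 and 20.4 CPM in the same order, where the groups overlapped. Arteries held 2.21 to 6.10 CPM in the 4 WT libraries and no UMI in either KO library, against 9 UMIs in telogen. With 3 UMIs put in place of the 0 KO counts, *Lrat* was 2.68-fold lower in KO arteries than in telogen arteries. This figure takes the 9 telogen UMIs as exact, and *Lrat* was not tested in KO arteries. In Lymph-Col and Lymph-Cap it was at or under 3.44 CPM in every library.

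After thinning, a *Lrat* UMI was found in 30.9% (24.9 to 37.5%) of WT Cap-other cells, 7.63% (6.35 to 9.08%) of Cap-Rgcc cells and 2.67% (1.962 to 3.547%) of Cap-Kdr cells, at median depths of 4585, 6212 and 5019 UMIs. The unthinned shares of the 3 were 50.9%, 23.1% and 7.08%. In thinned immune-like cells (median depth 12260 UMIs) a *Lrat* UMI was found in 0 of 3091, which at that depth allows a share of cells with a UMI of up to 0.0971%, and without thinning in 0.152%. Among blood ECs of the 4 WT mice, *Lrat* was higher in Cap-Rgcc than in the rest by 1.47 ± 0.14 log2 units (adjusted p = 1.85e-07) and lower in Artery by 3.04 ± 0.19 (adjusted p = 5.82e-08) and in Vein by 1.35 ± 0.26 (adjusted p = 6.53e-04). The Cap-Rgcc call was lost when the cells were clustered without correction between libraries (0.19 log2 units). That setting named no cells Cap-Kdr. Its Cap-Rgcc took in clusters led by *Car4* and by *Esm1*, genes that led Cap-Kdr clusters in the reported analysis. The name thus covers a different set of cells there. In Cap-Kdr the difference of -0.53 ± 0.23 did not pass (adjusted p = 0.0846). Lymphatic ECs were 5.64 ± 0.31 log2 units below blood ECs (adjusted p = 9.92e-09), perineurial-like cells 2.29 ± 0.37 below ECs (adjusted p = 6.77e-04) and pericyte-like cells 2.22 ± 0.32 below ECs (adjusted p = 6.88e-04). The genes whose log2(CPM + 1) profile was most like that of *Lrat*, over 54 profiles of 9 populations in 6 libraries, were *Slc1a1*, *Tacr1* and *Scarb1*, with a Pearson r of 0.79, 0.75 and 0.75. Profiles of a library share its depth.

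**Figure D2:**
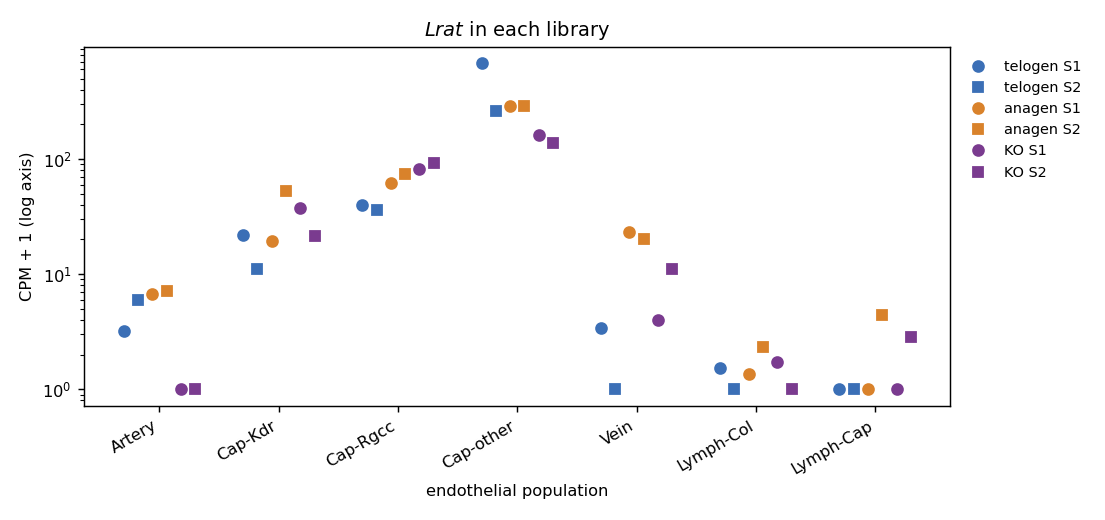
*Lrat* in 7 endothelial populations (x axis), each point 1 library, as CPM + 1 on a log axis. Cap-other lies highest in every library (138 to 683 CPM), and in Vein both anagen libraries (22.2 and 19.01 CPM) lie above both telogen libraries (2.40 and 0 CPM).

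*Dhrs3*, which returns retinal to retinol and is itself known to be induced by retinoic acid, was detected in every population. Its WT mean was highest in Cap-Kdr (97.8 ± 16.4 CPM, SD, n = 4), followed by macrophage-like cells (87.2 ± 45.7), Vein (71.7 ± 7.88), Lymph-Cap (64.2 ± 18.7) and Lymph-Col (55.9 ± 15.3), and each of these overlapped with the next. Perineurial-like cells (20.8 ± 9.07 CPM) stood near the low end. Among blood ECs, *Dhrs3* was higher in Cap-Kdr by 0.99 ± 0.09 log2 units (adjusted p = 2.37e-06) and in Vein by 0.59 ± 0.11 (adjusted p = 3.88e-04), and lower in Artery by 0.79 ± 0.10 (adjusted p = 3.80e-05) and in Cap-Rgcc by 1.15 ± 0.14 (adjusted p = 2.75e-06). The Cap-Rgcc difference turned to 0.38 (adjusted p = 0.0431) without correction between libraries, where Cap-Rgcc took in other capillary clusters and no cells were named Cap-Kdr. Lymphatic and blood ECs differed by -0.04 log2 units, with a 95% interval of -0.29 to 0.20. Perineurial-like cells lay below ECs by 1.54 ± 0.23 log2 units (adjusted p = 4.90e-04) and below pericyte-like cells by 1.42 ± 0.21 (adjusted p = 2.35e-04). A *Dhrs3* UMI was found after thinning in 15.3% (13.7 to 17.1%) of Cap-Kdr cells and in 2.87% (2.24 to 3.62%) of perineurial-like cells, at median depths of 5019 and 5477 UMIs, and without thinning in 35.5% and 9.24%.

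The 3 ALDH1A enzymes, each of which oxidises retinal to retinoic acid, had different sources. *Aldh1a1* was at 32.2 and 35.6 CPM in telogen and 27.4 and 23.1 CPM in anagen fibroblast-like cells, and at 194 and 134 CPM in KO ones, with every KO library above every WT library. Perineurial-like cells held 8.06 and 6.23 CPM in telogen, 8.68 and 6.43 CPM in anagen, and 69.5 and 5.53 CPM in KO, where KO S1 (22 UMIs) alone was high and KO S2 gave 1 UMI. In WT mice, *Aldh1a1* was higher in perineurial-like cells than in ECs by 6.02 ± 0.60 log2 units (adjusted p = 3.82e-05), where ECs of the 4 libraries held 5 UMIs in all, and lower than in fibroblast-like cells, with a difference of -2.5 ± 0.19 (adjusted p = 3.82e-07). A UMI of *Aldh1a1* was found after thinning in 0.873% (0.541 to 1.33%) of perineurial-like cells and in 0.0108% (2.72e-04 to 0.0599%) of ECs, at median depths of 5477 and 5374 UMIs, and without thinning in 3.23% and 0.0505%.

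*Aldh1a2* was at 5.01 and 6.08 CPM in telogen, 31.3 and 0 CPM in anagen, and 31.3 and 3.80 CPM in KO other immune-like cells, which spread within both anagen and KO as widely as between groups. *Aldh1a3* was at 7.72 and 11.3 CPM in telogen, 5.56 and 4.68 CPM in anagen, and 14.6 and 15.4 CPM in KO Lymph-Col cells. The KO libraries were highest, from 20 and 24 UMIs, yet did not pass the test (0.59 ± 0.36 log2 units against telogen, adjusted p = 0.2855). In WT mice *Aldh1a3* was 2.86 ± 0.32 log2 units higher in lymphatic than in blood ECs (adjusted p = 8.54e-06), and Lymph-Cap and Lymph-Col differed by 0.07 with a 95% interval of -0.64 to 0.77. The unnamed cells of anagen S1 held 79 *Aldh1a3* UMIs in a cluster of low depth (median 968 UMIs per cell), and the same cells of the other 5 libraries held none.

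*Crabp2*, which carries retinoic acid to its nuclear receptors, was found mainly in the cells that ensheathe nerves. In perineurial-like cells it was at 257 and 198 CPM in telogen, 340 and 239 CPM in anagen, and 104 and 33.2 CPM in KO. Every WT library was above both KO libraries, and the stages overlapped. In Schwann-like cells it was at 247 and 314 CPM in telogen, 125 and 0 CPM in anagen, and at 0 in both KO libraries, from 8 to 45 cells per library. In ECs as a whole, and in fibroblast-like and pericyte-like cells, *Crabp2* was at or under 12.03 CPM in every library. Over the 4 WT mice, perineurial-like cells exceeded ECs by 7.45 ± 0.22 log2 units (adjusted p = 1.68e-07), pericyte-like cells by 7.31 ± 0.35 (adjusted p = 1.29e-07) and fibroblast-like cells by 4.98 ± 0.21 (adjusted p = 2.93e-09). Against Schwann-like cells the difference was 0.30 ± 0.26 (adjusted p = 0.463), with a 95% interval of -0.21 to 0.82. Perineurial markers summed to 1772, 1784 and 1916 CPM in the Schwann-like cells of telogen S1, telogen S2 and anagen S1, where *Crabp2* was found. In those of anagen S2, with no *Crabp2* UMI in 8 cells, they summed to 393 CPM. The part of perineurial RNA in the Schwann-like level of *Crabp2* was not tested. A *Crabp2* UMI was found after thinning in 18.8% (17.2 to 20.4%) of perineurial-like cells, 20.6% (13.2 to 29.7%) of Schwann-like cells, 0.204% (0.123 to 0.319%) of ECs and 0.356% (0.178 to 0.636%) of immune-like cells, at median depths of 5477, 10625, 5374 and 12260 UMIs. Without thinning these shares were 35.6%, 53.3%, 0.727% and 1.58%. The profiles most like that of *Crabp2* were *Cnksr2*, *Slc6a13* and *Paqr6* (Pearson r of 0.94, 0.93 and 0.93 over the same 54 profiles).

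Of the 5 members tested between perineurial-like cells and ECs, 2 were higher and 2 lower, where 63.4% of all genes tested were called. Between perineurial-like and fibroblast-like cells it was 1 higher and 6 lower of 7 (52.4% of all genes called), and against pericyte-like cells 2 higher and 2 lower of 4 (49.6%). Against Schwann-like cells 0 of 2 were called by edgeR (22.2% of all genes). Between pericyte-like cells and ECs, 1 was higher and 1 lower of 3 (25.7%). Between lymphatic and blood ECs, 1 was higher and 1 lower of 3 (47.8%). Among blood ECs, Artery had 2 of 2 called (33.3%), Vein 2 of 2 (29.4%), Cap-Kdr 2 of 3 (36.4%) and Cap-Rgcc 2 of 2 (37.1%), and Lymph-Cap against Lymph-Col had 0 of 2 (36.1%).

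*Crabp1*, the other binding protein, was all but absent from perineurial-like cells, with 3 UMIs over the 4 WT libraries against 112 in fibroblast-like cells, a ratio of 0.0135 (95% counting interval 0.00275 to 0.0406). In fibroblast-like cells it was at 12.9 and 11.9 CPM in telogen, 32.4 and 14.8 CPM in anagen, and 0 and 2.23 CPM in KO. Both KO libraries were below all WT libraries, from 0 and 1 UMIs. Its highest level was in an unnamed cluster of 259 cells led by *Gm26917*, *Mfap4*, *Hist4h4* and *Twist1*, at 89.4 and 131 CPM in telogen, 174 and 1005 CPM in anagen, and 110 and 369 CPM in KO. Anagen S2 gave 150 of the *Crabp1* UMIs there, from 28 cells.

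*Cyp26b1*, the enzyme of retinoic acid breakdown, was found in stromal cells. In fibroblast-like cells it was at 22.8 and 30.7 CPM in telogen, 45.6 and 24.1 CPM in anagen, and 611 and 1044 CPM in KO, with no overlap between KO and WT. Pericyte-like cells held 19.2 and 13.2 CPM in telogen, 36.7 and 29.0 CPM in anagen, and 9.32 and 46.4 CPM in KO. The stages did not overlap, and the KO libraries lay on either side of both. Perineurial-like cells gave 1 UMI over the 4 WT libraries against 212 in fibroblast-like cells, a ratio of 0.00238 (95% counting interval 6.01e-05 to 0.0134). Pericyte-like cells exceeded ECs by 3.67 ± 0.31 log2 units (adjusted p = 1.74e-05). Among blood ECs, Cap-Kdr held *Cyp26b1* at 5.58 to 6.62 CPM in the 4 WT libraries, 1.84 ± 0.31 log2 units above the others (adjusted p = 4.25e-04). A *Cyp26b1* UMI was found after thinning in 3.97% (2.37 to 6.21%) of fibroblast-like and 2.20% (1.01 to 4.13%) of pericyte-like cells, against 0.388% of immune-like cells, at median depths of 15847, 9050 and 12260 UMIs. Without thinning the shares were 15.7%, 9.74% and 3.75%.

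The comparison of anagen with telogen asks which genes move with the hair cycle. Over 16 populations 36 tests of the 9 genes were made, and 1 was called higher and 0 lower by edgeR (adjusted p below 0.05 and more than a 1.3-fold change). Of all 126343 tests 0.691% were called, 0.527% higher and 0.164% lower. Unadjusted, 14 of the 36 had a p under 0.05, which was common over all genes as well. It held for 1616 of 11173 genes in perineurial-like, 1126 of 8985 in fibroblast-like and 1360 of 10129 in other immune-like cells. These 3 populations had the most member tests. The gene called was *Lrat* in Vein, which was at 2.40 and 0 CPM (3 and 0 UMIs) in telogen and 22.2 and 19.01 CPM (63 and 101 UMIs) in anagen. Both anagen libraries were above both telogen ones, and the ratio of the summed UMIs was 15.98 (95% counting interval 5.37 to 78.3, adjusted p of the edgeR test 0.00975). In Vein 0.922% of all genes were called. The call was lost when the cells were clustered without correction between libraries.

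Near the threshold stood *Dhrs3* in perineurial-like cells, at 11.2 and 15.9 CPM in telogen and 24.5 and 31.6 CPM in anagen. The stages did not overlap, and the difference was 1.13 ± 0.24 log2 units (adjusted p = 0.0704). In perineurial-like cells 0 of 5 members were called by edgeR, where 1.06% of all genes were called. *Lrat* in Cap-Rgcc differed by 0.96 ± 0.22 (adjusted p = 0.0987). *Aldh1a3* in perineurial-like cells, from 3 and 3 UMIs in telogen and 7 and 15 in anagen, differed by 2.55 ± 0.58 (adjusted p = 0.0881). *Crabp2* in perineurial-like cells differed by 0.42 ± 0.19 (adjusted p = 0.367). The stage difference of *Dhrs3* in perineurial-like cells exceeded that in Artery by 0.93 ± 0.30, which did not pass either (adjusted p = 0.228, with 0 of 5 members and 0.914% of all genes called).

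Of the 56 other genes of retinoid handling, the stage comparison called 4 higher and 0 lower in 333 tests, or 1.2%, beside 0.691% of all tests. *Rbp7*, a retinol-binding protein of capillaries, was higher at anagen in Lymph-Col (3.11 ± 0.44 log2 units, adjusted p = 0.0154) and in macrophage-like cells (4.72 ± 0.58, adjusted p = 8.44e-04). Anagen gave 99 and 14 macrophage-like cells, against 299 and 718 in telogen. In other immune-like cells, endothelial markers (8 genes) summed to 82.6 and 74.7 CPM in telogen and to 164 and 465 CPM in anagen. The part of endothelial RNA in these *Rbp7* results was not tested. *Scarb1*, a receptor for lipoproteins and carotenoids, was higher in Lymph-Col (2.13 ± 0.40, adjusted p = 0.0360), and *Dhrs7*, a short-chain dehydrogenase, in perineurial-like cells (0.87 ± 0.15, adjusted p = 0.0415).

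The comparison of KO with WT telogen asks what differs in cells sorted from mice in which Alk1, a receptor of the TGF-β family, was deleted with Cdh5-CreERT2. The authors describe the immune cells and fibroblasts among the sorted cells as contaminants negative for *Cdh5*. Whether Alk1 was deleted in the fibroblast-like and immune-like cells cannot be told from the counts. In 14 populations 30 tests of the 9 genes were made, of which 6 were called higher and 7 lower by edgeR, where 16.9% of all 108553 tests were called, 7.79% higher and 9.12% lower. The share of all genes called differed widely between populations, from 0.0339% to 37.6%.

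In perineurial-like cells, 3 of 3 members tested were called (21.1% of all genes). *Crabp2* fell by 1.65 ± 0.33 log2 units (3.14-fold, adjusted p = 0.00419), from 257 and 198 CPM to 104 and 33.2 CPM. *Dhrs3* rose by 2.39 ± 0.36 log2 units (5.25-fold, adjusted p = 6.78e-04), from 11.2 and 15.9 CPM to 72.7 and 82.9 CPM. Both calls held under all 15 alternatives run for each, among them leaving out each of the 4 libraries in turn. The 15 include the call by adjusted p alone on the same fit, which cannot lose a call. *Aldh1a1* was called higher (2.58 ± 0.64, adjusted p = 0.0129), but the call was lost without KO S1 (-0.60, adjusted p = 0.80), without telogen S1 or telogen S2 (adjusted p = 0.129 and 0.1695), and with DESeq2 (adjusted p = 0.0886). Of the libraries, KO S1 alone turned its direction. The KO libraries gave 81 and 55 perineurial-like cells, against 547 and 853 in telogen. Fibroblast markers (8 genes) summed to 8763 and 8361 CPM in these KO cells and to 13196 and 14070 CPM in telogen ones, and their part in these results was not tested. Of the 12 perineurial markers, 5 were lower in both KO libraries than in every WT library (*Krt19*, *Slc6a13*, *Sfrp5*, *Lypd2* and *Moxd1*), 3 were higher (*Itgb4*, *Thbs4* and *Ptch1*) and 4 overlapped. *Lypd2* was at 3.16 and 0 CPM in KO against 479 and 592 CPM in telogen, and *Thbs4* at 1216 and 917 CPM against 479 and 402 CPM. Their part in the results on the retinoid genes was not tested.

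Finer clusters, found at a resolution of 1.2 and given as a description, parted the perineurial-like cells in 3. Cells led by *Slc6a13*, *Thbs4* and *Spink1* were highest in *Crabp2*, at 384 and 282 CPM in telogen, 562 and 400 CPM in anagen, and 299 and 85.5 CPM in KO. Cells led by *Sfrp5*, *Hcn4* and *Cldn22* held 166 and 158, 133 and 128, and 20.2 and 0 CPM. Cells led by *Mybph* and *Pcp4* held 97.1 and 83.4, 105 and 84.2, and 0 and 19.3 CPM. KO S2 was below all WT libraries in each of the 3, and KO S1 in all but the first. *Dhrs3* was highest where *Crabp2* was not. In the *Sfrp5* and *Hcn4* cells it was at 19.1 and 23.8 CPM in telogen, 48.8 and 60.6 CPM in anagen, and 94.2 and 113 CPM in KO, with no overlap between the 3 groups. In the *Slc6a13* and *Thbs4* cells it was at 2.34 to 6.52 CPM in WT and 19.9 and 17.1 CPM in KO, and in the *Mybph* and *Pcp4* cells at 4.91 to 13.4 CPM in WT and 104 and 116 CPM in KO. The KO libraries were the highest in all 3 clusters, from 1 to 14 UMIs per library and cluster.

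**Figure D3:**
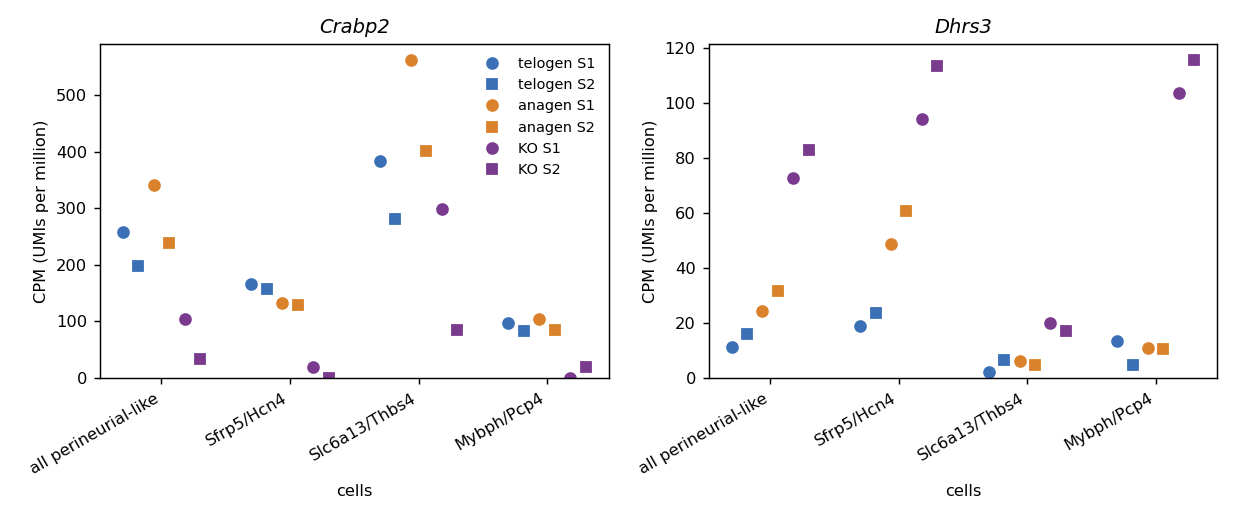
*Crabp2* (left) and *Dhrs3* (right) in all perineurial-like cells and in 3 finer clusters named by leading genes (x axis), as CPM (y axis), each point 1 library. In all perineurial-like cells the KO libraries are lowest in *Crabp2* (104 and 33.2 CPM) and highest in *Dhrs3* (72.7 and 82.9 CPM).

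The rise of *Dhrs3* differed between cell types. In Artery it was at 30.1 and 41.0 CPM in telogen and 36.7 and 41.9 CPM in KO, and the KO difference in perineurial-like cells exceeded that in Artery by 2.19 ± 0.42 log2 units (edgeR interaction test, adjusted p = 0.00104, 1 of 2 members and 7.08% of all genes called). For *Crabp2* the same difference was -1.67 ± 0.87 and did not pass (adjusted p = 0.2862). In Cap-Kdr *Dhrs3* fell from 91.6 and 104 CPM to 42.0 and 28.4 CPM, by 1.61 ± 0.25 log2 units (adjusted p = 8.72e-04, 31.3% of all genes called). This call held under all 14 alternatives run. Clustering without correction between libraries gave no Cap-Kdr cells, so that setting is not among the 14. There, 489 and 525 KO cells fell in a capillary cluster with 1 to 4 cells of each WT library. The matching of KO to WT capillary types thus rests on the correction. In fibroblast-like cells *Dhrs3* rose from 18.9 and 24.1 CPM to 43.2 and 62.3 CPM, by 0.98 ± 0.34 (adjusted p = 0.0473), a call lost under 8 of 16 alternatives. Vein, Lymph-Col, Lymph-Cap, Cap-Rgcc and macrophage-like cells did not pass. In Lymph-Cap, *Dhrs3* was at 50.8 and 69.2 CPM in telogen and at 117 and 83.3 CPM in KO (0.69 ± 0.23, adjusted p = 0.0609).

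In Schwann-like cells the single member tested, *Crabp2*, was called lower (adjusted p = 0.00216, 9.14% of all genes called). KO libraries gave 0 UMIs against 263 in telogen. With 3 UMIs put in place of 0 over the KO group this is 6.05-fold lower, a figure that takes the telogen count as exact. The 8 and 12 KO cells differed from telogen in other ways. Fibroblast markers summed to 96.7 and 968 CPM against 11244 and 11636 CPM, perineurial markers to 387 and 968 CPM against 1772 and 1784 CPM, and keratinocyte markers to 4974 CPM in KO S2 against 0 to 37.2 CPM in KO S1 and telogen. Their part in the *Crabp2* result was not tested. The call was lost in the fit of all 6 libraries and without either telogen library.

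In fibroblast-like cells 4 of 5 members tested were called, where 37.6% of all genes were called. *Cyp26b1* rose by 4.61 ± 0.33 log2 units (24.3-fold, adjusted p = 1.12e-04), from 22.8 and 30.7 CPM to 611 and 1044 CPM. *Aldh1a1* rose by 1.91 ± 0.28 log2 units (3.77-fold, adjusted p = 0.00142), from 32.2 and 35.6 CPM to 194 and 134 CPM. *Crabp1* was called lower (adjusted p = 0.0168), with 1 UMI in KO against 64 in telogen, a ratio of 0.112 (95% counting interval 0.00278 to 0.644), and this turned to 0.47 log2 units (adjusted p = 0.404) without correction between libraries. With DESeq2 the *Crabp1* call was lost as well (adjusted p = 0.114). *Rbp4* differed by 0.43 ± 0.61 log2 units (adjusted p = 0.607) and did not pass.

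The KO fibroblast-like cells were not of the same make-up as the WT ones. Without correction between libraries, all 29 and 54 of them fell in a cluster led by *Mfap4*, *Cyp26b1*, *Cilp* and *Cpz*, which held 22.5% and 4.95% of the telogen and 14.7% and 10.1% of the anagen fibroblast-like cells. *Cyp26b1* within that cluster was at 80.6 and 324 CPM in telogen, 227 and 202 CPM in anagen, and 611 and 1044 CPM in KO, so that KO was still above each WT library. In the *Sfrp4* and *Ptx3* cluster, which held most of the other WT fibroblast-like cells, *Cyp26b1* was at 4.65 to 16.1 CPM. In a test within the *Mfap4* cluster, added after seeing the data, KO exceeded telogen by 1.95 ± 0.49 log2 units for *Cyp26b1* (adjusted p = 0.00969) and by 2.01 ± 0.46 for *Aldh1a1* (adjusted p = 0.00604), with 29 and 9 telogen cells, while *Dhrs3* did not pass (0.67 ± 0.53, adjusted p = 0.357). *Mfap4* itself was at 2107 and 3110 CPM in the telogen and 101 and 13.4 CPM in the KO cells of the cluster. The fibroblast markers summed to 23668 and 15091 CPM in all KO and to 61012 to 70338 CPM in all WT fibroblast-like cells.

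**Figure D4:**
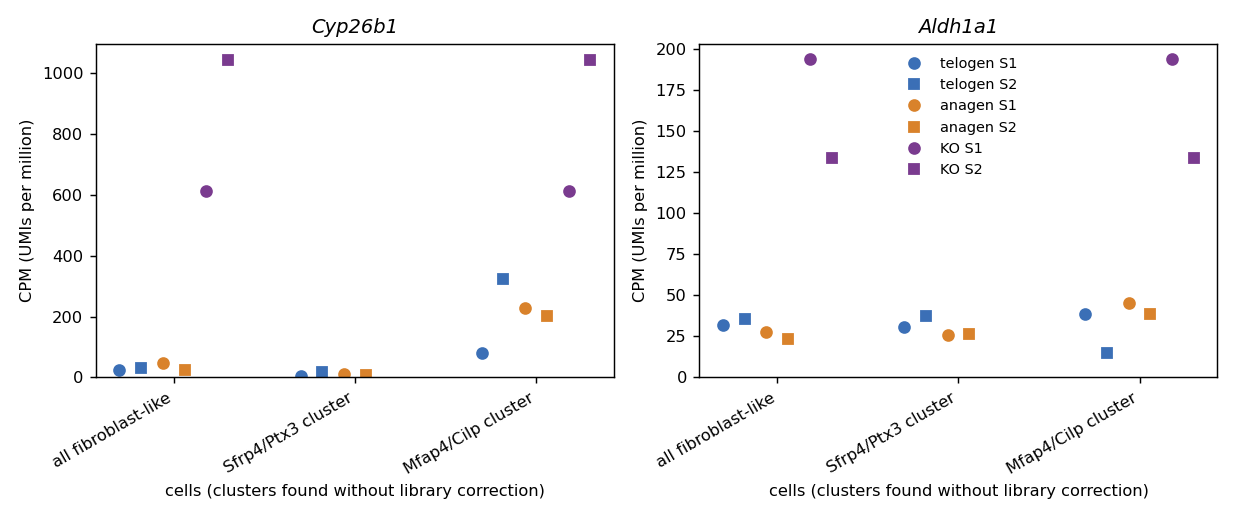
*Cyp26b1* (left) and *Aldh1a1* (right) as CPM (y axis) in all fibroblast-like cells and in the 2 main clusters they fell in without library correction (x axis), each point 1 library. KO cells lie in the *Mfap4* and *Cilp* cluster alone, where both genes are above every WT library.

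In capillaries *Lrat* moved in opposite directions. In Cap-Rgcc it rose from 38.5 and 34.9 CPM to 81.0 and 90.7 CPM, by 1.23 ± 0.28 log2 units (adjusted p = 0.00670, 19.2% of all genes called). In Cap-other it fell from 683 and 262 CPM to 159 and 138 CPM, by 1.85 ± 0.43 (adjusted p = 0.00137, 23.3% of all genes called), with 14 and 11 telogen cells. Without telogen S2 the *Lrat* call in Cap-Rgcc was lost, without telogen S1 that in Cap-other (-0.90), and both were lost with DESeq2 (adjusted p = 0.0678 and 0.0705). The difference between these 2 changes was not tested. Without correction between libraries Cap-other kept 2 and 1 KO cells, too few for the test. *Aldh1a3* in Lymph-Cap was called lower, from 8.28 and 12.7 CPM to 3.47 and 1.10 CPM (2.25 ± 0.62 log2 units, adjusted p = 0.0274, 15.8% of all genes called), a call lost when any of the 4 libraries was left out. *Rbp4* in other immune-like cells fell by 2.80 ± 0.36 log2 units (adjusted p = 0.0270, 2.95% of all genes called), with 17 and 57 KO cells. This *Rbp4* call was lost in the fit of all 6 libraries (adjusted p = 0.0513). The *Rbp4*-bearing cluster held 4 and 11 of these KO cells, and adipocyte markers summed to 1479 CPM in KO S1 against 2.67 to 6.33 CPM in KO S2 and telogen, and their part was not tested.

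**Figure D5:**
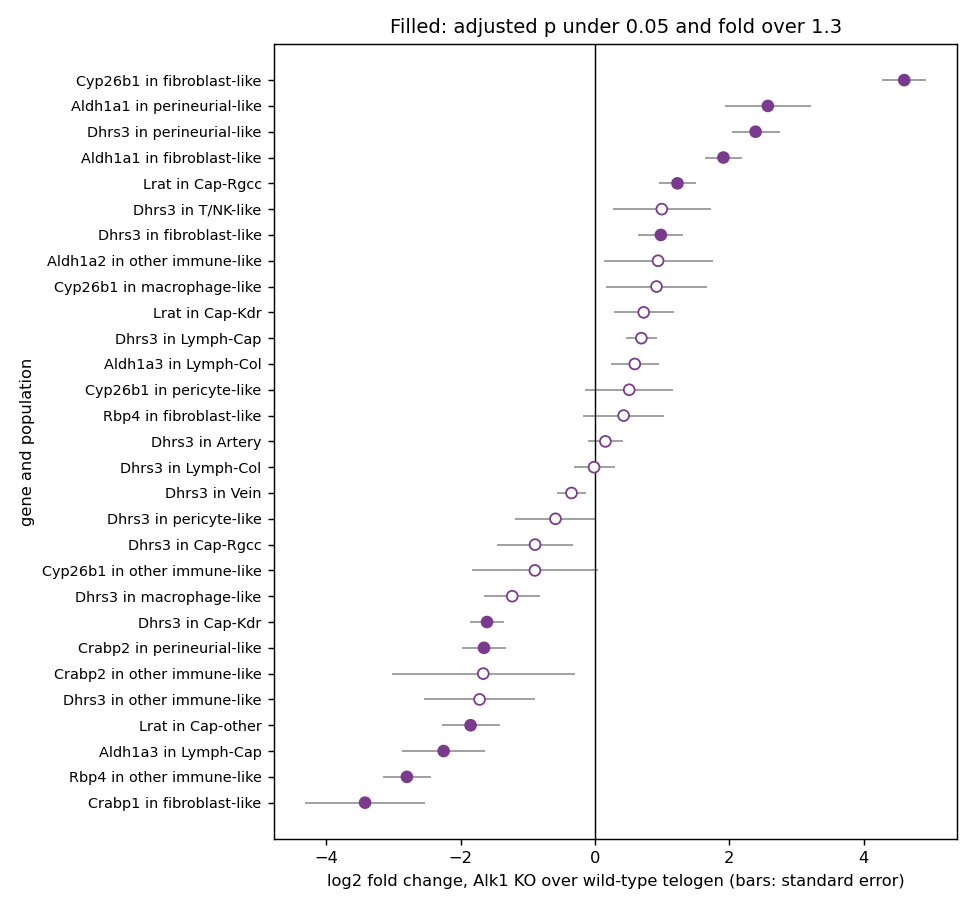
Log2 fold change of KO over WT telogen (x axis) with its standard error (bars) for 29 of the 30 tests of the 9 genes, by gene and population (y axis), filled where called. *Crabp2* in Schwann-like cells, with no UMI in KO, is left out. *Dhrs3* appears on both sides of 0, called at 2.39 in perineurial-like cells and -1.61 in Cap-Kdr.

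Among the 56 other genes of retinoid handling, the KO comparison called 33 higher and 29 lower in 297 tests, or 20.9%, beside 16.9% of all tests. *Pnpla2*, a lipase known to release retinol from its esters as well as fat from triglycerides, was called higher in 12 of 14 populations, by 0.77 to 4.48 log2 units, among them perineurial-like cells (3.01 ± 0.20 log2 units, adjusted p = 3.39e-06), Cap-Kdr (2.86 ± 0.21, adjusted p = 9.19e-06) and fibroblast-like cells (4.48 ± 0.81, adjusted p = 0.00380). *Rbp7* was called lower in 5 of 9 populations, among them Cap-Kdr (-2.68 ± 0.36, adjusted p = 3.32e-04), Cap-Rgcc (-2.48 ± 0.42, adjusted p = 0.00109) and Cap-other (-4.00 ± 0.60, adjusted p = 3.46e-06). *Fabp5*, which can carry retinoic acid to another nuclear receptor, was called lower in 5 of 13, among them Vein (-2.42 ± 0.18, adjusted p = 1.41e-06) and Cap-Kdr (-2.34 ± 0.23, adjusted p = 4.74e-05). In perineurial-like cells 2 of 31 were higher and 4 lower (19.4%, beside 21.1% of all genes), with a median of -0.26 log2 units over the 31 against -0.06 over all 10325 genes tested. *Rarg*, a receptor of retinoic acid, was among the higher ones (1.80 ± 0.22, adjusted p = 2.17e-04). *Rarres1* (-3.12 ± 0.66, adjusted p = 0.00525) and *Tgm2* (-3.56 ± 0.63, adjusted p = 0.00205), both known to respond to retinoic acid, were among the lower ones. Over the 13 populations where it was tested, *Tgm2* was called higher in 6 and lower in 2. In fibroblast-like cells 7 of 27 were higher and 5 lower (44.4%, beside 37.6% of all genes), with a median of 0.21 against -0.06 over all genes. *Dhrs7* (-1.87 ± 0.26, adjusted p = 0.00129) and *Tgm2* (-3.51 ± 0.60, adjusted p = 0.00276) were among the lower ones there. Between WT perineurial-like cells and ECs, 16 of 33 were higher and 11 lower (81.8%, beside 63.4% of all genes). *Rdh5*, a retinol dehydrogenase (4.38 ± 0.19, adjusted p = 5.11e-07), and *Adh7*, an alcohol dehydrogenase that acts on retinol (4.56 ± 0.24, adjusted p = 1.22e-06), were higher in perineurial-like cells, and *Rbp7* (-5.24 ± 0.22, adjusted p = 5.11e-07), *Fabp5* (-5.04 ± 0.18, adjusted p = 2.93e-07) and *Scarb1* (-3.43 ± 0.10, adjusted p = 1.71e-07) were lower.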

How the data were processed

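Droplet libraries (10x 3′ chemistry) of 6 mice, 2 per group, were aligned by the authors with Cell Ranger 6.0.1 (mm10), and the submitters' processing notes also name Seurat 4.0. The deposited values are UMI counts per gene and cell barcode, not normalized, with at least 500 UMIs per barcode. Cells with 200 to 5000 genes and under 10% mitochondrial UMIs were kept. They were clustered (the most variable genes without the 9 genes and 56 other retinoid genes, the Harmony correction between libraries, written in numpy 2.4.6, Leiden resolution 0.6, scanpy 1.11.5) and named from marker lists. Counts were summed per library and population (at least 5 cells) and tested with edgeR 4.0.16 (quasi-likelihood, filterByExpr, TMM, Benjamini-Hochberg over all genes tested). A gene was called where its adjusted p was below 0.05 and it changed more than 1.3-fold. Comparisons of cell types used the 4 WT libraries with the library as a block, and the replicates are separate mice.

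CPM are the summed counts of a gene per 1000000 counts of its population. Doublets were not removed, since Scrublet marked only 2 to 58 cells per library, except in an alternative. The scripts were tested on simulated data. The members and lists were chosen with earlier results of these data known, and all 9 members are named. Values of the 56 other genes were taken from up to 6 called per comparison, those with the smallest adjusted p, and which of these to print was chosen after their values were seen. The alternatives were DESeq2 1.42.0, RLE size factors, no filter on low counts, stricter cell filters, doublet removal, resolution 1.2, no correction between libraries, clustering with the left-out genes, all 6 libraries in the fit, a replicate block and leaving out each library. The call by adjusted p alone, on the reported fit without the 1.3-fold threshold, was also counted as an alternative and cannot lose a call.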

Additional observations from a re-analysis of the deposited data

Results flagged for a closer look

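The KO difference of *Dhrs3* in perineurial-like cells exceeded that in Artery by 2.19 log2 units, by an interaction test. *Dhrs3* was called higher in KO perineurial-like (2.39) and fibroblast-like (0.98) cells and lower in KO Cap-Kdr (-1.61), with every library moving one way in the first populations and the opposite way in the last, and the differences between these populations were not tested. *Lrat* was likewise higher in KO Cap-Rgcc (1.23) and lower in KO Cap-other (-1.85), which was not tested.

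Dixon's criterion is passed about 1 time in 20 by 4 draws from 1 normal distribution, a rate that need not hold here. The 4 WT libraries are of 2 stages, and some values rest on few UMIs. By this criterion single libraries stood apart from the other 3 WT libraries in 6 of 31 groups of 4 libraries. They were *Rbp4* in other immune-like cells of anagen S2 (97.5 CPM), *Lrat* in Cap-other of telogen S1 (683 CPM), *Dhrs3* in Schwann-like cells of anagen S2 (141 CPM, 5 UMIs), *Dhrs3* in mast-like cells of anagen S1 (0 CPM), *Aldh1a3* in T and NK-like cells of anagen S1 (67.3 CPM, 6 UMIs) and *Crabp1* in fibroblast-like cells of anagen S1 (32.4 CPM).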

How the results depend on the processing

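Of the 9 genes, the stage comparison called 1 in the reported analysis, 0 without correction between libraries, 12 with no filter on low counts, 2 at resolution 1.2 and 1 to 6 when a library was left out (6 without anagen S1 or anagen S2, 2 without telogen S2). The replicate block called 5, but same-numbered mice did not deviate together (r from -0.0634 to 0.189 over 16 populations for stage and -0.157 to 0.120 over 14 for KO), so the numbers do not pair them. The KO comparison called 13, against 7 with DESeq2 and 7 to 15 when a library was left out (7 without either telogen library). With all 6 libraries the calls of perineurial-like against fibroblast-like cells went from 7 to 4 (5 to 7 leaving out a library), against pericyte-like cells from 4 to 2 (also 2 with the stricter cell filter, 3 to 4 leaving out a library), in Cap-Kdr from 2 to 1, and in Lymph-Cap against Lymph-Col from 0 to 1. Against Schwann-like cells 1 was called with no filter, and 0 to 1 leaving out a library. Lymphatic against blood ECs had 1 with the stricter cell filter, Cap-Rgcc 1 without correction between libraries, and the stage interaction 0 to 1 leaving out a library.

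Of 1457 values of single genes under alternatives, 1373 stayed called or stayed uncalled, 38 lost the call, 42 gained it and 4 reversed. A value was counted as reversed only where its direction changed and the reported or the alternative fit called it. Changes of direction where neither fit called the gene are among the 1373. These values include the calls by adjusted p alone, which cannot lose a call. The reversed ones were *Aldh1a1* in KO perineurial-like cells without KO S1 (-0.60, and up to 3.24 leaving out another library), *Crabp1* in KO fibroblast-like cells (0.47) and *Dhrs3* in Cap-Rgcc (0.38) without correction, and *Dhrs3* in KO Lymph-Col at resolution 1.2 (0.74). Without correction, Cap-Rgcc took in clusters like those of Cap-Kdr and so was not the same set of cells. The cause of the reversals was not tested. A crossed block in KO pericyte-like cells, chosen after seeing the data, called 0 members. With 2 mice per group and 1 to 14 UMIs for some KO values, small differences were not detectable.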

Other observations

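The unnamed cluster of 259 cells that held *Crabp1* also held *Cyp26b1*, at 228 and 157 CPM in telogen, 0 and 121 CPM in anagen, and 440.5 and 570.1 CPM in KO. Its median depth was 1325 UMIs per cell. In all unnamed cells together *Aldh1a3* was seen in anagen S1 alone.

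The profiles most like that of *Cyp26b1*, over 54 profiles of 9 populations in 6 libraries, were *Dlk1* (Pearson r = 0.84), *Galnt16* (0.83) and *Irx1* (0.82). Those most like *Rbp4* were *Efs* (0.96), *Scara5* (0.94) and *Cldn10* (0.94), and those most like *Aldh1a1* were *Adgrd1* (0.93), *Dpep1* (0.92) and *Abca8a* (0.91). For *Crabp1* they were *Cpz* (0.93), *Mmp3* (0.92) and *Insyn1* (0.92), and for *Aldh1a3* *Lif* (0.74) and *Mfap2* (0.73). *Dhrs3* had no profile above 0.63 (*Oard1*).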
